A study of Mus musculus with 6 samples.

Results

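The 38 genes described here act in DNA replication and cell division: 11 belong to S phase and 27 to G2 and mitosis (G2/M). They were taken by symbol from the deposited table, where all 38 were among the 15912 genes listed. All 38 also passed the filter that left 12767 genes for testing, which asked for 10 or more normalized counts in 3 or more of the 6 libraries. Of the 38, 32 reached 10 in 6 libraries and 6 in 5 libraries.

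The series compared hippocampal microglia, the resident macrophages of the brain, that held few or many lipid droplets. Droplets were stained with BODIPY, a dye of neutral lipid, and sorting gave a BODIPY-low and a BODIPY-high group of 3 libraries each, numbered 1 to 3 in both groups. Both groups came from male C57BL/6 mice aged 3 months that had been given lipopolysaccharide (LPS), a bacterial wall component that provokes inflammation, into the peritoneum at 1 mg/kg for 4 days and were perfused 24 h after the last dose. The gate was thus the difference between the groups, while LPS, strain, sex and age were shared. Each sample pooled the hippocampi of 2 mice, and FACS took about 10000 live CD11b+CD45lo cells, the usual gate for microglia. Libraries from the PBS arm were not analysed here, so every value below is from LPS-treated animals. The labels do not say what a library number marks or whether the 3 samples of a gate stem from separate pools, so p-values below refer to the spread among these samples, which may be technical.

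Libraries held 34899413 to 39220494 recovered reads, with library 2 the deepest of the BODIPY-low gate and the shallowest of the BODIPY-high gate. All values below are normalized counts, meaning reads divided by a size factor per library (0.911 to 1.09). Where no read was counted, up to 3 reads remain possible, worth 2.76 to 3.29 normalized counts. Because PCR copies were not marked with molecular identifiers, reads are not independent molecules, and this floor and the counting intervals cover counting error only. The 10 microglial markers were present in every library, with a summed level of 1874127 to 2820876.

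A dividing cell copies its DNA in S phase and parts the copies in mitosis. Genes of S phase supply nucleotides and build the replication helicase, and many are transcribed through E2F factors. Genes of G2/M encode cyclins, mitotic kinases and parts of the kinetochore and spindle. They are repressed or activated through the DREAM complex, B-Myb and FoxM1, which act at the promoter element called CHR. CCAAT is a separate promoter element that was also searched for below. Microglia renew themselves by division in the adult brain, and only a small part of them is in cycle at rest.

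None of the 38 genes passed the test of the gate alone over all genes. Once the library number was taken into account as a block, 6 were called higher, beside 4.37% of all genes. Without replicate 2 in both gates, that blocked count was 1. The share of all genes called in that fit is not given here, so the drop cannot be ascribed to the members alone. Most of the 38 (29, beside 4.48% of all genes) differed by library number, mostly with library 2 highest. The test of the number was added after the values had been seen. None of the 38 was called higher or lower in BODIPY-high libraries by the limma test (adjusted p under 0.05 over all 12767 genes), whereas 259 genes (2.03%) were called higher and 3 (0.0235%) lower. At an unadjusted p under 0.05, limma gave 2 members higher, Mcm4 and Cenpf, and none lower, beside 8.03% and 2.27% of all genes. On recovered reads, edgeR called 0 members, beside 1.74% of all genes higher and 0.00783% lower, and DESeq2 called 0, beside 3.63% and 0.251%. At an unadjusted p under 0.05, edgeR gave 2 members higher (7.49% of all genes, and 2.62% lower) and DESeq2 gave 4 (8%, and 2.67% lower). Library 2 had the highest value of both gates in 30 of the 38, against 11.4% of all genes tested, and library 1 the lowest value of both gates in 33, against 18.1%. Summed over the 27 G2/M members, libraries 1, 2 and 3 held 2796, 13052 and 5639 in the BODIPY-low gate and 3137, 21577 and 7464 in the BODIPY-high gate. In a bulk sample, more cells in division and more of this RNA per cell cannot be told apart.

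**Figure D1:**
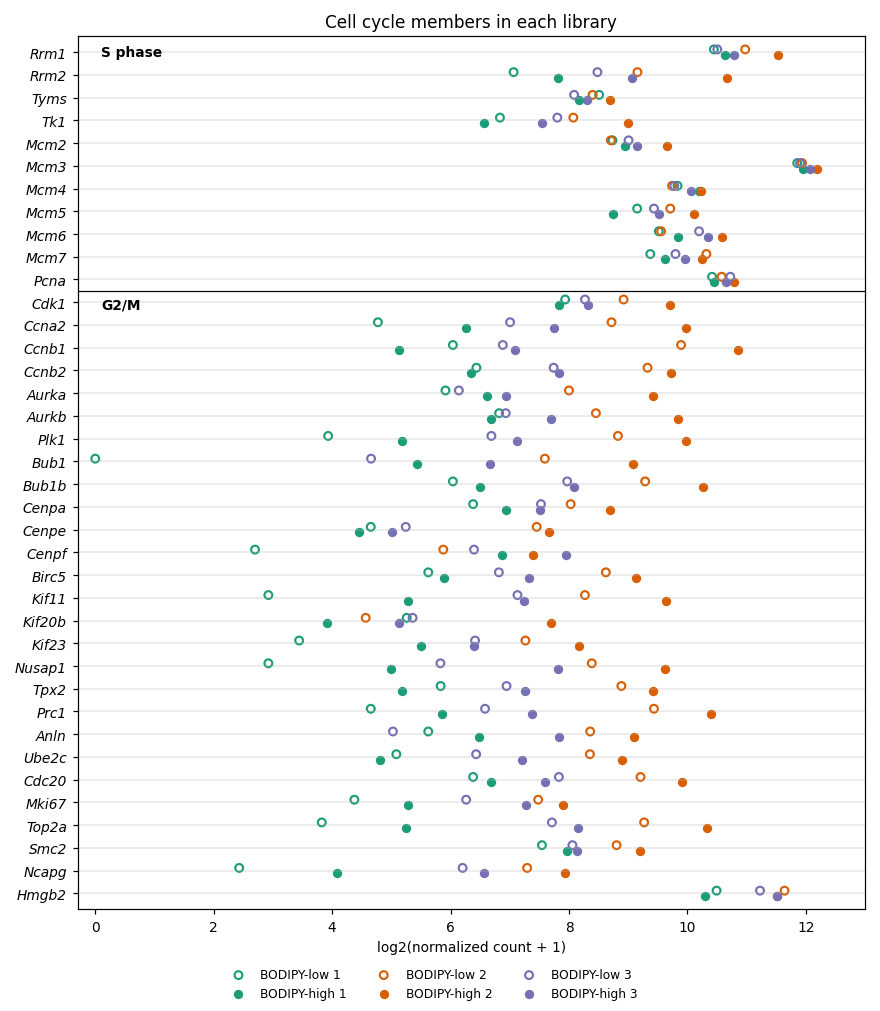
Level of each of the 38 genes in the 6 libraries, on a log2(normalized count + 1) axis; open circles are BODIPY-low and filled circles BODIPY-high libraries, and color gives the library number. Below the line, the orange points of library 2 lie to the right in 24 of 27 G2/M members in both gates, while the S phase members above the line spread less.

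**Figure D2:**
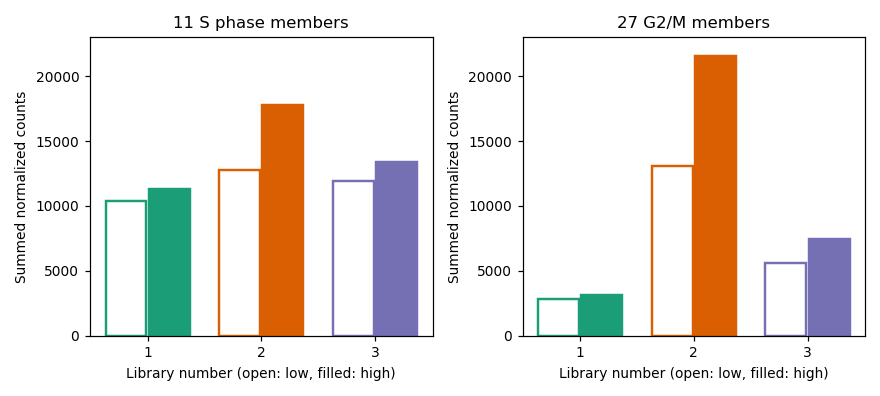
Summed normalized counts of the 11 S phase members (left) and the 27 G2/M members (right) in each library; 1 bar is 1 library, so there is no error bar. G2/M sums of library 2 reached 13052 and 21577, above those of libraries 1 and 3 in both gates.

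Promoters are shown for members of each phase because the G2/M members varied together and the S phase members did so less. RefSeq promoters (GRCm38.p6, from 250 bases before to 50 after the start) were matched for 34 of the 38. They were searched on both strands for CHR (TTTGAA), for CCAAT, and for E2F sites spelled TTTCCCGC, TTTCGCGC, TTTGCCGC or TTTGGCGC, where overlapping matches were allowed. The 200 bases before the start of 7 members, read 5′ to 3′ on the gene's own strand, carry these matches in capitals. They come from chr11:99024190-99024389 (minus strand), chr2:164769729-164769928 (plus), chr4:118437344-118437543 (minus), chr19:37376182-37376381 (plus), chr10:69352913-69353112 (minus), chr8:75109309-75109508 (plus) and chr1:128359706-128359905 (minus), in the order of the lines.
Top2a: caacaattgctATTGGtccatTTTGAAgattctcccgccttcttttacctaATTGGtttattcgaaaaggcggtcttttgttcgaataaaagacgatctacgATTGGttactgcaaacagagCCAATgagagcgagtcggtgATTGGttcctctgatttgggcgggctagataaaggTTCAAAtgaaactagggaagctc
Ube2c: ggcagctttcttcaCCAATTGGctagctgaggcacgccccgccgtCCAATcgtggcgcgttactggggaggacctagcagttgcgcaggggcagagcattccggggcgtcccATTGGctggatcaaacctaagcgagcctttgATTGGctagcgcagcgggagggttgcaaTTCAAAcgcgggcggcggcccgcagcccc
Cdc20: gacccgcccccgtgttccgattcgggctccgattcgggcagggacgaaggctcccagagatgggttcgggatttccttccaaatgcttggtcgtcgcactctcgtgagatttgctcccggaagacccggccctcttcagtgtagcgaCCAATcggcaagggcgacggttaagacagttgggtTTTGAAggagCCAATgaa
Kif11: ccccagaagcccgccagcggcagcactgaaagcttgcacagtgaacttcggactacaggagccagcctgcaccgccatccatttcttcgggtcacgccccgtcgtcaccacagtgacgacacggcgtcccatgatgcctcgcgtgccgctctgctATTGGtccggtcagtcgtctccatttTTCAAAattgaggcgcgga
Cdk1: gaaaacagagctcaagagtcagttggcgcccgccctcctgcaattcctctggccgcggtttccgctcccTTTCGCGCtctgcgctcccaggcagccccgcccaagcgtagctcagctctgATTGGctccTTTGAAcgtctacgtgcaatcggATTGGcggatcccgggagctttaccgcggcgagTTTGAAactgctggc
Mcm5: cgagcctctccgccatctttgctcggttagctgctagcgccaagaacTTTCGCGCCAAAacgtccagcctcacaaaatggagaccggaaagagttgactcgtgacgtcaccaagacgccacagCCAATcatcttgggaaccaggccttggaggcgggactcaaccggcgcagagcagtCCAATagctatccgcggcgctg
Mcm6: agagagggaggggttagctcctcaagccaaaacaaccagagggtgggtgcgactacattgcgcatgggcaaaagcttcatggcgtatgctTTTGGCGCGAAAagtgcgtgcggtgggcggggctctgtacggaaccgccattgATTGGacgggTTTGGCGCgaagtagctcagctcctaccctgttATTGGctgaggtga
In the G2/M promoters shown, a CHR match lies close to the start: 23 bases before it in Top2a, 29 in Ube2c, 18 in Cdc20, 19 in Kif11 and 15 in Cdk1, counted from the first base of the match. No CHR match is in the 200 bases of Mcm5 or Mcm6, which hold E2F matches 153 and 149 bases before the start in Mcm5 and 110, 106 and 47 in Mcm6. Over the 300-base windows, 19 of 24 matched G2/M members (79.2%) and 1 of 10 matched S phase members (10%) held CHR, against 14.3% of the 9745 tested genes with a promoter and 20.2% of all 27025 genes with one. CCAAT was present in 83.3% of these G2/M and 80% of these S phase members, against 42.9% and 41.1%. CHR and CCAAT were both present in 17 of 24 G2/M members (70.8%), against 5.7% of tested and 7.97% of all genes. An E2F match was present in 4 of 10 S phase members (40%) and 2 of 24 G2/M members (8.33%), against 4.74% of tested and 2.6% of all genes. The 7 promoters shown leave out the exceptions. Ccnb1, Bub1, Cenpe, Birc5 and Nusap1 of G2/M held no CHR match, though all of them were highest in library 2 of both gates. Mcm2 of S phase held CHR and CCAAT, as did Cenpf and Hmgb2 of G2/M, and Kif20b of G2/M held CHR without CCAAT. None of these genes was highest in library 2 of both gates. A match is a description of the letters, not a site in use, and a link between CHR and the library pattern was not tested.

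The S phase members had 94.1 or more normalized counts in every library and differed less between libraries than the G2/M members. All 11 had a positive log2 difference (BODIPY-high minus BODIPY-low), with a median of 0.17, beside a median of -0.004 over all genes. That median was 0.071 without BODIPY-high 2, where 6 of the 11 stayed positive, 0.39 without BODIPY-high 1 and 0.36 by edgeR, and 7 of the 11 stayed positive without BODIPY-low 1. None passed the limma test. Across all 11, the highest library of a gate was a median 1.52 times the lowest.

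Among the enzymes of nucleotide supply, Rrm2, the small subunit of ribonucleotide reductase, varied most. Rrm2 was at 133, 569 and 356 in BODIPY-low libraries 1, 2 and 3 and at 223, 1618 and 534 in the BODIPY-high libraries, in the same order. This order holds for all triplets below, where low and high stand for the gates. Library 2 was the highest of each gate, and the gates overlapped. Means were 353 ± 218 and 792 ± 732 (SD, n = 3 per gate), and the log2 difference was 0.95 ± 0.71 (SE; limma adjusted p = 0.763). Rrm1, the large subunit of the same enzyme, was at 1393, 2011 and 1451 in low and 1593, 2940.4 and 1766 in high libraries, with a log2 difference of 0.34 ± 0.23 (adjusted p = 0.722). Its order of libraries was that of Rrm2 with a smaller spread. Tk1, thymidine kinase, was at 113, 268 and 222 in low and 94.1, 509 and 185 in high libraries, and Tyms, thymidylate synthase, at 363, 336 and 271 in low and 287, 415 and 316 in high libraries. The gates overlapped for both genes.

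The 6 MCM genes encode the subunits of the helicase that opens DNA at origins. Mcm4 (chr16:15623897-15637400, mm10) had the smallest p of the 38. It was at 911, 854 and 876 in low and 1168, 1199 and 1062 in high libraries, so that every BODIPY-high library lay above every BODIPY-low library. Its means were 880.2 ± 28.6 and 1143 ± 72 (SD, n = 3), and its log2 difference of 0.38 ± 0.12 (SE) did not pass over all genes (limma adjusted p = 0.230). Mcm6 was at 731, 751 and 1172 in low and 919, 1529.5 and 1297 in high libraries, with a log2 difference of 0.50 ± 0.23 (adjusted p = 0.524). For Mcm2, values of 425, 417 and 513 in low and 493, 808 and 566 in high libraries gave 0.44 ± 0.21 (adjusted p = 0.539). In both genes the 3 pair ratios were above 1, but the ranges of the gates crossed. Mcm3, which had the highest level per kilobase of annotated exon among the 38 (means of 1016 and 1148 normalized counts per kb in the gates), was at 3697, 3915 and 3824 in low and 3959, 4647 and 4310.3 in high libraries, with no overlap and a log2 difference of 0.17 ± 0.09 (adjusted p = 0.613). Mcm5 and Mcm7 overlapped between gates, with log2 differences of 0.03 ± 0.31 and 0.11 ± 0.25. Pcna, the sliding clamp that holds DNA polymerase on its template, was at 1364, 1525 and 1689 in low and 1394, 1768 and 1607 in high libraries, a log2 difference of 0.06 ± 0.13 (adjusted p = 0.943).

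The G2/M members spanned a far wider range between libraries of the same gate. The highest library of a gate was a median 9.65 times the lowest over these genes, leaving out Bub1 in the low gate, where 1 library was at 0. Of the 27, 25 had a positive log2 difference by limma (27 by edgeR and by DESeq2), with a median of 0.67, and none passed the limma test. That median rested on single libraries: it was -0.16 without BODIPY-low 1, -0.21 without BODIPY-high 2, 1.27 without BODIPY-low 2 and 1.43 without BODIPY-high 1.

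Cyclins and Cdk1, whose complexes drive entry into mitosis, were highest in library 2 of both gates in 4 of 4 members. Cdk1, the kinase itself, was at 244, 484 and 307 in low and 227, 835 and 318 in high libraries, a log2 difference of 0.25 ± 0.45 (SE; adjusted p = 0.921). Ccna2, cyclin A2, was at 26.3, 419.7 and 127 in low and 76.1, 1007 and 214 in high libraries, a log2 difference of 1.17 ± 1.08 (adjusted p = 0.822). Ccnb1, cyclin B1 (chr13:100778650-100786570, mm10), was at 64.7, 949 and 117 in low and 34, 1842 and 135 in high libraries, a log2 difference of 0.09 ± 1.39 (adjusted p = 0.992). For Ccnb1, library 2 was 10.4 times the mean of libraries 1 and 3 in the low gate and 21.8 times in the high gate, the largest such ratio among the members in the high gate. Libraries 1 and 3 of the gates overlapped in Ccnb1, with pair 1 lower in the high gate. Ccnb2, cyclin B2, was at 85.6, 640.4 and 213 in low and 80.1, 845 and 225 in high libraries.

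The 5 mitotic kinases had the same high library. Aurka, a kinase of the spindle poles, was at 59.2, 255 and 69.5 in low and 97.1, 679 and 121 in high libraries, a log2 difference of 0.97 ± 0.78 (SE; adjusted p = 0.783). Bub1, a kinase of the spindle checkpoint (chr2:127801122-127831865, mm10), was at 0, 192 and 24.2 in low and 42, 537 and 100.2 in high libraries, a log2 difference of 2.97 ± 1.68 (adjusted p = 0.637). Bub1 had 0 reads in BODIPY-low 1 and 42 in BODIPY-high 1, so only a lower limit of the pair 1 ratio can be given, which was 9.94 by the exact 95% interval. Its fitted difference depends on the added constant of 1 and is no bound. Plk1, a kinase that acts from mitotic entry to exit, was at 14.3, 453 and 102 in low and 35, 1011 and 138 in high libraries. Aurkb, the kinase of the chromosomal passenger complex, was at 112, 349.6 and 121 in low and 102, 910.3 and 207 in high libraries, and Bub1b, a checkpoint protein that restrains the anaphase-promoting complex, at 64.7, 623 and 249.5 in low and 89.1, 1223 and 269 in high libraries. In each of these 3 genes both gates held their lowest value in library 1 and their highest in library 2.

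Of the 4 genes of the centromere and the passenger complex, Cenpf departed from this order. Cenpf, a large kinetochore protein (chr1:189640606-189688086, mm10), was at 5.49, 57.8 and 83.2 in low and 116, 167 and 246 in high libraries. Library 3 was the highest of each gate, and no BODIPY-high library fell below a BODIPY-low library. Means were 48.8 ± 39.6 and 176 ± 65.2 (SD, n = 3), and the log2 difference was 2.41 ± 0.86 (SE; limma adjusted p = 0.325). Cenpa, the centromeric histone, was at 82.3, 259.9 and 183 in low and 121, 413 and 181 in high libraries, a log2 difference of 0.40 ± 0.52 (adjusted p = 0.881). Birc5, survivin, was at 48.3, 393 and 112 in low and 58.1, 560.4 and 159 in high libraries, and Cenpe, a kinetochore motor, at 24.1, 174 and 36.9 in low and 21, 201.4 and 31.3 in high libraries. Cenpe was one of the pair of G2/M members with a negative fitted difference (-0.07 ± 0.94), the other being Hmgb2. Both turned positive by edgeR and DESeq2, and Hmgb2 also when libraries were scaled to their totals.

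The 7 genes of the spindle and of cytokinesis were highest in library 2 of both gates in 6 cases. Nusap1, a microtubule-binding protein of the spindle, was at 6.58, 333 and 55.8 in low and 31, 784 and 224 in high libraries, a log2 difference of 1.77 ± 1.42 (SE; adjusted p = 0.783). Anln, an actin-binding protein of the contractile ring, was at 48.3, 327 and 31.6 in low and 88.1, 545 and 225 in high libraries, a log2 difference of 1.46 ± 0.89 (adjusted p = 0.670). The gates overlapped for both, though the high gate was above the low gate in each numbered pair. Prc1, which bundles midzone microtubules, was at 24.1, 691 and 94.8 in low and 57.1, 1355 and 166 in high libraries, and Kif11, the motor that pushes spindle poles apart, at 6.58, 307 and 139 in low and 38, 793 and 149.9 in high libraries. Kif23, a midzone motor, was at 9.87, 153 and 84.2 in low and 44, 286 and 82.8 in high libraries, and Tpx2, an activator of Aurora A, at 56, 471 and 122 in low and 35, 684 and 153 in high libraries. All 4 were highest in library 2 of both gates. Kif20b, a motor of cytokinesis, was not: it was at 37.3, 22.7 and 40.0 in low and 14, 205 and 34 in high libraries, so that 1 library, BODIPY-high 2, stood above the other 5.

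The anaphase-promoting complex was represented by its activator Cdc20 and its ubiquitin-conjugating enzyme Ube2c. Cdc20 was at 82.3, 589.9 and 226 in low and 101, 963 and 191 in high libraries, a log2 difference of 0.25 ± 0.87 (SE; adjusted p = 0.966), and Ube2c was at 32.9, 326 and 85.3 in low and 27, 477 and 146 in high libraries, a log2 difference of 0.35 ± 1.05 (adjusted p = 0.960). Library 2 exceeded each other library of its gate by more than 2-fold for both genes, and the gates overlapped.

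Library 2 was the highest of both gates in 4 of the 5 genes of chromosome structure and Ki-67. Mki67, the source of the proliferation marker Ki-67, was at 19.7, 177 and 75.8 in low and 38, 236 and 154 in high libraries, with means of 91 ± 79.9 and 143 ± 99.6 (SD, n = 3) and a log2 difference of 0.78 ± 0.85 (SE; adjusted p = 0.856). Top2a, the topoisomerase that untangles sister chromatids, was at 13.2, 616 and 208 in low and 37, 1285 and 284 in high libraries, with means of 279 ± 307 and 535 ± 661 and a log2 difference of 0.98 ± 1.48 (adjusted p = 0.905). In both genes the spread between libraries of a gate was larger than the difference between gates. Smc2, a condensin subunit, was at 185, 446 and 265 in low and 250.3, 584 and 279.6 in high libraries, a log2 difference of 0.30 ± 0.39 (adjusted p = 0.885), and Ncapg, another condensin subunit, at 4.39, 156 and 72.7 in low and 16, 242 and 93.8 in high libraries. Hmgb2, a chromatin protein expressed in many cells outside mitosis too, was at 1438, 3188 and 2392 in low and 1261, 2907 and 2935 in high libraries, a log2 difference of -0.01 ± 0.36 (adjusted p = 0.997). BODIPY-high 2 and 3 were nearly level for Hmgb2, and the gates overlapped.

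Some of these values can hold reads of other genes. Exons of 10 members (Tk1, Mcm7, Ccna2, Plk1, Nusap1, Prc1, Ube2c, Cdc20, Top2a and Ncapg) overlap those of another annotated gene, mostly on the opposite strand, and the libraries do not keep strand. Pseudogenes named after Tyms, Pcna, Ccnb1 and Ccnb2 are annotated, so how reads were split there is uncertain.

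Each numbered pair was then compared by its BODIPY-high over BODIPY-low ratio. Pair 2 had the largest median ratio in both phases. The median over the 27 G2/M members was 1.47 in pair 1, 1.87 in pair 2 and 1.29 in pair 3, with 18, 26 and 22 members above 1. Over the 11 S phase members it was 1.14, 1.4 and 1.11, with 8, 10 and 9 above 1. Over all genes tested the 3 medians were 1.00, 1.01 and 1.00. In 21 of the 38 the high library exceeded the low library in 3 of 3 pairs, against 20.7% of all genes. Gates did not overlap in 3 members (Mcm3, Mcm4 and Cenpf), against 10.4% of all genes in the same direction, and no member lay wholly lower, against 5.95%.

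The pairs did not give the same ratio for every gene. Cenpf was higher in the high gate by a ratio of 21.2 (95% interval 8.81 to 66.4) in pair 1, 2.88 (95% interval 2.12 to 3.98) in pair 2 and 2.95 (95% interval 2.29 to 3.84) in pair 3, where exact intervals cover counting error only. Nusap1 was higher by 4.71 (95% interval 1.94 to 13.8), 2.35 (95% interval 2.06 to 2.69) and 4.02 (95% interval 2.98 to 5.52). Both genes had ratios whose intervals lay above 1 in all 3 pairs. Ccnb1 gave 0.526 (95% interval 0.334 to 0.815), 1.94 (95% interval 1.79 to 2.1) and 1.16 (95% interval 0.898 to 1.49), so pair 1 lay below 1 and pair 2 above it. Kif20b gave 0.376, 9.05 and 0.850 and Anln 1.82, 1.67 and 7.13, with the largest ratio in pair 2 for Kif20b and in pair 3 for Anln. Rrm2 gave 1.68, 2.84 and 1.5, Top2a 2.81, 2.09 and 1.36 and Mki67 1.93, 1.33 and 2.03. Mcm4 gave 1.28, 1.4 and 1.21 and Mcm3 1.07, 1.19 and 1.13, both closer to a common ratio than the other genes of this paragraph.

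**Figure D3:**
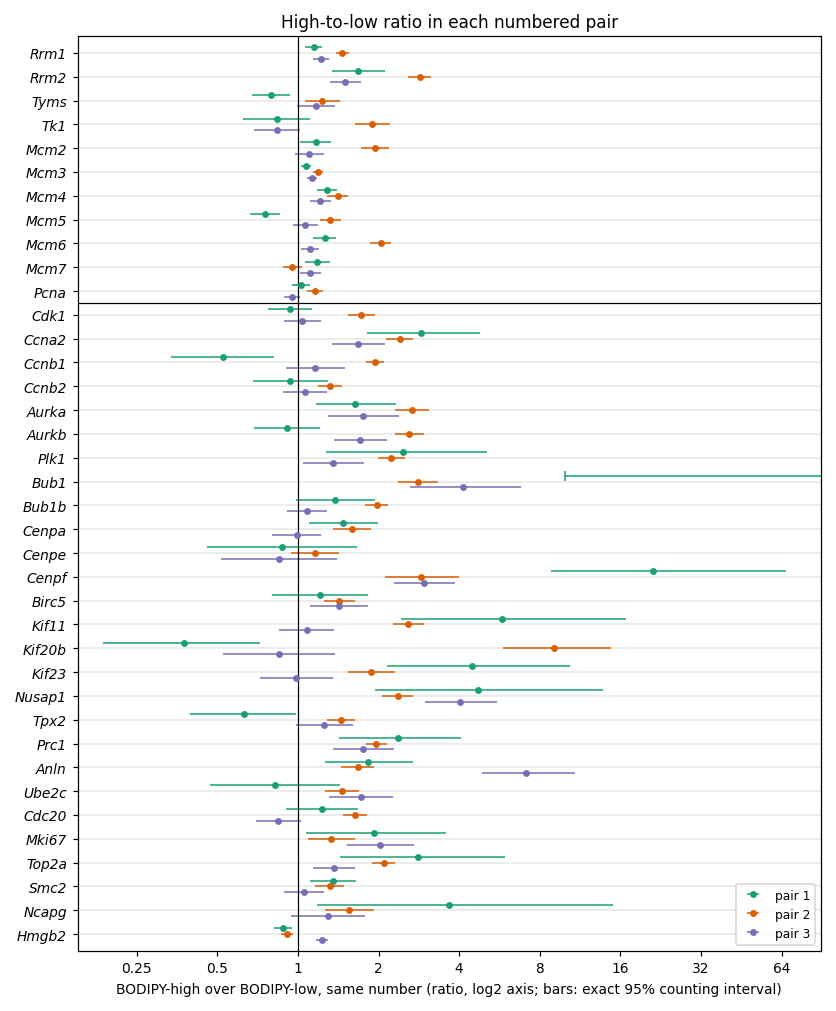
BODIPY-high over BODIPY-low ratio of each member in pairs 1, 2 and 3 on a log2 axis, with exact 95% counting intervals; Bub1 in pair 1 has 0 reads in the low library, so only its lower limit of 9.94 is drawn and the bar runs off the axis. Ratios of pair 2 lie to the right of 1 in 36 of 38 members, and those of pair 1 scatter to both sides.

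Libraries of the same number deviated together across genes, so the numbers were treated as pairing the samples. With the number as a block, limma called 558 genes (4.37%) higher and 59 (0.462%) lower. It called 6 members higher and none lower: Rrm2 of S phase, and Ccna2, Bub1, Cenpf, Nusap1 and Prc1 of G2/M. Nusap1 had the smallest adjusted p of these (0.00850, log2 difference 1.77 ± 0.30 SE), followed by Ccna2 (0.0226, 1.17 ± 0.24), Rrm2 (0.0245, 0.95 ± 0.20), Cenpf (0.0246, 2.41 ± 0.50), Bub1 (0.0339, 2.97 ± 0.67) and Prc1 (0.0351, 0.99 ± 0.23). All 6 were higher in the BODIPY-high library of 3 of 3 pairs. At an unadjusted p under 0.05 the block gave 20 members higher and 0 lower, against 11.6% and 6.28% of all genes.

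The block acted on the error, since the difference itself is the same in both fits. The median SE of the G2/M members was 0.937 without the block and 0.280 with it, and that of the S phase members 0.234 and 0.161, while over all genes it was 0.185 and 0.141. All 38 had the smaller SE with the block. The number of members called with the block changed with the pair left out. Without replicate 2 in both gates it was 1 (Cenpf, limma adjusted p = 0.0448), without replicate 1 it was 11, and without replicate 3 it was 5. With a pseudocount of 0.5 the blocked fit called 5 and lost Bub1 (adjusted p = 0.0575). The share of all genes that these fits called by gate is not given here, so the changes cannot be ascribed to the members alone. The edgeR test with the block called 7, adding Aurka, beside 3.91% of all genes higher and 0.392% lower.

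**Figure D4:**
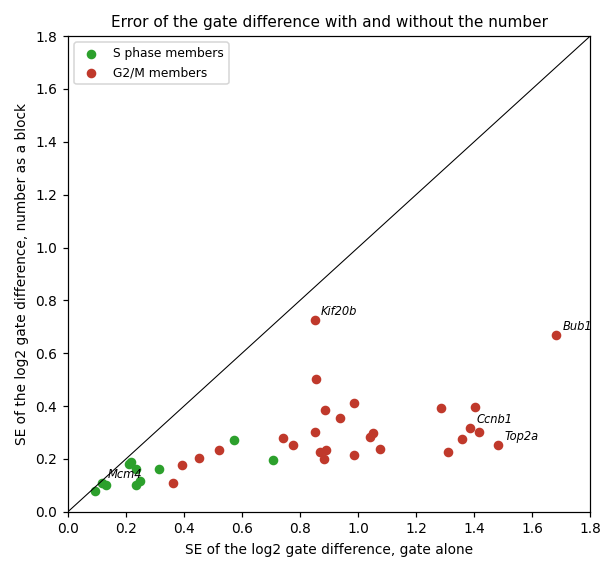
SE of the log2 difference between gates for each member, from limma without (x axis) and with (y axis) the library number as a block; the line marks equal values. All 38 points lie below the line, with median SEs of 0.937 without and 0.280 with the block for G2/M members and 0.234 and 0.161 for S phase members.

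Most members differed by library number. This was tested after these values had been seen, by asking limma whether the number terms of the blocked fit differ from 0. This called 572 of 12767 genes (4.48%) and 29 of the 38 members, 4 of 11 in S phase (Rrm1, Rrm2, Tk1 and Mcm7) and 25 of 27 in G2/M. Cenpf and Kif20b were the G2/M members not called. The smallest adjusted p were those of Prc1 (0.000343) and Top2a (0.000343), and edgeR also called 29 members, beside 521 genes (4.08%). Without replicate 2 in both gates, which compares libraries 1 and 3 only, 16 members and 1029 genes were called. Without replicate 3 it was 29 members and 192 genes, and without replicate 1 it was 24 and 626.

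Library 2 exceeded the mean of libraries 1 and 3 by a median ratio of 4.22 in BODIPY-low and 6.14 in BODIPY-high libraries over the G2/M members. The S phase members had 1.06 and 1.38, and all genes tested 0.99 in both gates. The order of library 2, then 3, then 1 appeared in both gates for 29 members, against 3.34% of all genes. In 19 members, all of G2/M, library 2 was at least 2-fold above each of the other libraries in both gates, against 0.791% of all genes (101). For Prc1 the ratios to the mean of libraries 1 and 3 were 11.6 and 12.2, for Plk1 7.78 and 11.7, for Cdk1 1.76 and 3.06 and for Pcna 0.999 and 1.18, in the low and the high gate. The excess of library 2 was thus larger for Prc1 and Plk1 than for Cdk1, and Pcna was near level.

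**Figure D5:**
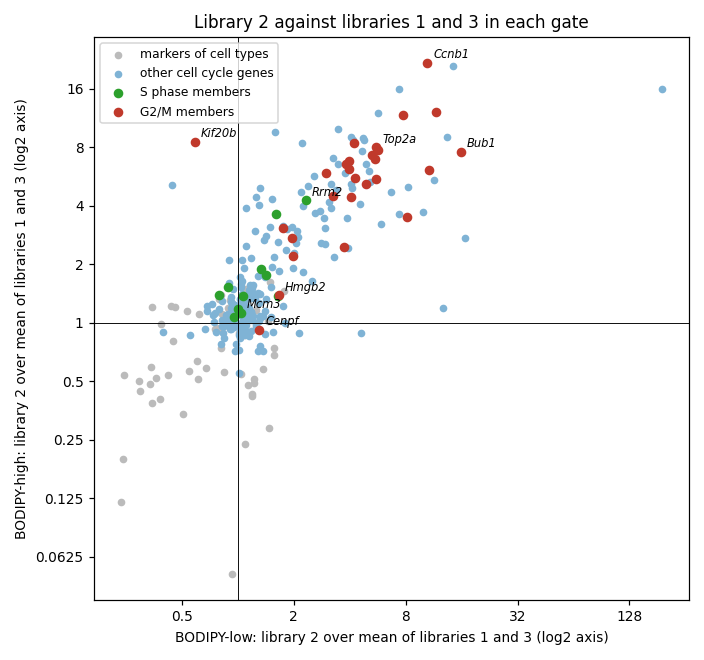
Library 2 divided by the mean of libraries 1 and 3 in the BODIPY-low (x axis) and BODIPY-high gate (y axis), both log2 axes; each point is 1 gene, and genes whose value is 0 or undefined on either axis are not drawn. G2/M members (red) spread to the upper right, around medians of 4.22 and 6.14, while S phase members (green) lie around 1.06 and 1.38; other cell cycle genes are blue and cell type markers gray.

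Other genes of the cycle were read from 12 lists with 205 genes in the table, of which 203 were tested. By gate, limma called 1 of them higher, Ccnd2, cyclin D2 of G1, and 0 lower (9 and 2 at an unadjusted p under 0.05), beside 2.03% and 0.0235% of all genes. Ccnd2 was at 9.87, 15.5 and 31.6 in low and 114, 158 and 199.6 in high libraries, a log2 difference of 3.10 ± 0.48 (SE; adjusted p = 0.0168), and every BODIPY-high library was above every BODIPY-low library. The call was lost without BODIPY-low 2 (adjusted p = 0.0618), BODIPY-high 2 (0.114) or BODIPY-high 3 (0.0915), and without replicate 1 (0.0837) or replicate 2 (0.288) in both gates. Ccnd1 was at 945, 1405 and 373 in low and 854, 630.2 and 563 in high libraries, and Ccnd3 at 1425, 2018 and 2021 in low and 1528, 1984 and 2849 in high libraries, and neither passed (adjusted p = 0.920 and 0.869). With the block 4 genes were called higher, which were Ccnd2, Iqgap1 and Racgap1 of cytokinesis, and Stil of the centriole, and 0 lower (40 higher and 6 lower at an unadjusted p under 0.05), beside 4.37% and 0.462% of all genes.

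By number, 44 of the 203 were called, beside 4.48% of all genes, and most of the 44 were on lists of mitosis. Spindle motors and microtubule factors had 16 of 21 called, kinetochore and spindle checkpoint 11 of 28, cytokinesis 4 of 8, and condensin, cohesin and separase 3 of 17. Origin licensing and firing had 0 of 18 by limma and 0 by edgeR (4 by limma at an unadjusted p under 0.05). With 18 genes, 0 called cannot be told from the share of all genes. Replication fork genes had 1 of 26 called (3.85%), close to that share. Racgap1, a regulator of the midzone and cleavage furrow, was at 92.2, 735 and 197 in low and 153, 1418 and 318 in high libraries (adjusted p by number = 0.000435). Foxm1, a transcription factor of G2/M genes, was at 25.2, 129.9 and 68.4 in low and 40.0, 295 and 117 in high libraries (adjusted p by number = 0.0126, by gate 0.816). Both had the library order of the G2/M members. Mybl2, which encodes B-Myb, was at 18.7, 67 and 10.5 in low and 31, 51.8 and 85.5 in high libraries, and E2f1, an activator of S phase genes, at 348, 404 and 360.1 in low and 365, 667 and 535 in high libraries. Neither was called by number (adjusted p = 0.496 and 0.280) or by gate (0.702 and 0.571).

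No inhibitor of the cycle passed the test of the gate over all genes. Cdkn1a, which encodes the inhibitor p21, was at 324, 624 and 502 in low and 386, 676 and 500.3 in high libraries (adjusted p by gate = 0.944). Cdkn1b, which encodes p27, was at 199, 122 and 157 in low and 84.1, 106 and 90.1 in high libraries, a log2 difference of -0.74 ± 0.29 (adjusted p = 0.391). Every BODIPY-high library of Cdkn1b lay below every BODIPY-low library, as it did for 2 of the 9 inhibitors and pocket proteins tested (Cdkn1b and Cdkn2b), against 5.95% of all genes. The genes of smallest p on the other lists did not pass either. They were Pold1 of the fork (log2 difference 0.40 ± 0.14, adjusted p = 0.343), Dnmt1 (0.49 ± 0.16, 0.265), Smc1a of cohesin (0.51 ± 0.22, 0.462), Orc1 of the origin (-0.99 ± 0.45, 0.505), Atm of the checkpoint (-0.70 ± 0.34, 0.561), Cdc26 of the anaphase-promoting complex (-0.38 ± 0.15, 0.408), Zwint of the kinetochore (0.22 ± 0.11, 0.563) and E2f6 (0.36 ± 0.18, 0.562). Iqgap1 and Stil had 1.21 ± 0.37 (0.209) and 1.56 ± 0.83 (0.605) without the block.

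Markers of cell types other than microglia were compared with the pattern of the G2/M members. By gate, 10 of 12 markers of border-associated macrophages and 7 of 7 of choroid plexus were called higher in BODIPY-high libraries, with summed levels of 2641 to 7742 against 23608 to 89535 and of 301 to 2211 against 38908 to 50942. Astrocyte markers had 4 of 7, oligodendrocyte precursor markers 2 of 4 and erythroid markers 1 of 2 called higher. Over all genes, 2.03% were called higher by gate and 0.0235% lower. Limma called 0 of 10 microglial, 0 of 6 monocyte, 0 of 11 neutrophil, 0 of 8 endothelial and 0 of 2 lymphocyte markers by gate (1 lower, 3 higher, 2 higher, 0 and 0 at an unadjusted p under 0.05). All 10 microglial markers had a negative log2 difference, with a median of -0.26, beside -0.004 over all genes. For 3 of them every BODIPY-high library lay below every BODIPY-low library, against 5.95% of all genes. With the block, limma called 1 of 10 microglial markers lower (Olfml3), beside 0.462% of all genes. It called higher 12 of 12 markers of border-associated macrophages, 7 of 7 of choroid plexus and 6 of 7 of astrocytes. Also called higher were 2 of 4 oligodendrocyte precursor, 2 of 2 erythroid, 2 of 11 neutrophil and 1 of 6 monocyte markers. The share of all genes called higher with the block was 4.37%. By number, the test called 11 of 12 markers of border-associated macrophages, 2 of 2 erythroid, 3 of 8 endothelial and 1 of 10 microglial markers, beside 4.48% of all genes. By number, 7 of 11 neutrophil markers were called, and their summed levels were 86066, 188210.4 and 187732 in low and 101070.3, 133496 and 273015 in high libraries. Monocyte markers had 2 of 6 called, with sums of 9955, 24545 and 24357 and 9484, 20609 and 32529.9. Like the G2/M members, these sums were lowest in library 1 of both gates, but none of those neutrophil or monocyte markers was highest in library 2 of both. Of all 11 marker lists, 1 gene of T, NK and B cells (Cd79b) and 1 endothelial gene (Esam) were highest in library 2 of both gates. Markers of neural progenitors, which divide in the hippocampus, summed to 0 to 31.9 with none reaching the filter. The part of these cells in the levels of the cell cycle genes was not tested.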

How the data were processed

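RNA of sorted microglia was sequenced from 3 BODIPY-low and 3 BODIPY-high libraries. Per the series' design text, reads were mapped to mm10 with STAR 2.5.3a, counted per gene with STAR and tested with DESeq2. FastQC 0.11.4 is also named in the submitters' processing notes, which list mm9 beside mm10. The annotation and the strand column used for counting were left unnamed in the sources used here. Each deposited signal value is the authors' gene count after division by the library's size factor, and 100% of values in each library were whole multiples of 1 step within 0.05 of a read. Reads recovered in this way served edgeR and DESeq2 as alternatives only. Of the names listed, 23 had been turned into dates and are not used.

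Here limma-trend (limma 3.58.1, R 4.3.3; edgeR 4.0.16 and DESeq2 1.42.0 for alternatives) was fitted to log2(normalized count + 1) over 12767 genes with the gate as the only term, two-sided, with Benjamini-Hochberg adjustment over all of them. The added constant understates the change of low genes, while fitted differences compare means of logs and can exceed the ratio of means, as for Bub1 (7.84-fold against 3.15) and Cenpf (5.32 against 3.61). Alternatives were pseudocounts of 0.5 and 5, no filter or a filter of 50, TMM or total scaling, both count tests, the library number as a block, and each library left out. Libraries left out in pairs, edgeR with the block and the test of the number terms were added after the values had been seen. Numbers were taken to pair samples because deviations from the gate means correlated across genes for equal numbers. These correlations were 0.354, 0.244 and 0.363, each over 0.1. For unequal numbers they were -0.255 to -0.0951. Deviations from a gate mean cancel within that gate, so the negative values follow from the positive ones and are no separate evidence of pairing. The labels give the number but not what it marks. Every 2 libraries differed by more than sampling noise (chi-square per degree of freedom at least 29.1). The code was tested on simulated counts. The members and lists were chosen with earlier results of these data known.

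Genes given in full were, per role, those called or else the 2 of smallest p, plus Mki67, Top2a, Cdk1, Ccnb1, Pcna, Mcm2, Rrm2 and Hmgb2. From each cell cycle list they were those called or else the 1 of smallest p, plus Ccnd1, Ccnd2, Ccnd3, Cdkn1a, Cdkn1b, E2f1, Mybl2 and Foxm1. Other single genes were chosen after their values were seen. Coordinates are those of GENCODE release M21 on mm10.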

Additional observations from a re-analysis of the deposited data

How the results depend on the processing

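No member was called under any alternative without the block, and leaving out libraries turned the fitted direction of 5 of 11 S phase and 21 of 27 G2/M members. Genes called higher, 259, were 131 under the filter of 50, 464 by DESeq2, 558 with the replicate block and 499 by edgeR with it. Those called lower, 3, were 1 under that filter, by total scaling and by edgeR, 32 by DESeq2, and 59 and 50 with the block. The block gave 1 S phase and 5 G2/M members by limma and 1 and 6 by edgeR, and changed no other member's call. The S phase median of 0.17 was 0.36 by edgeR and 0.37 by DESeq2. Of the other cell cycle genes 1 was called, 2 by DESeq2, 4 with the block and 3 by edgeR with it. Cenpe turned to 0.094 by edgeR and 0.11 by DESeq2, and Hmgb2 to 0.015 by total scaling, 0.0024 by edgeR and 0.014 by DESeq2. The cause was not tested. Leaving out libraries gave 0 to 271 genes higher (0 without replicate 2 in both gates, 15 without BODIPY-high 2), 0 to 2 lower, 0 to 1 other cell cycle gene, S phase medians of 0.071 to 0.39, G2/M medians of -0.21 to 1.43, 192 to 1029 genes and 16 to 29 members by number, and 1 to 11 blocked members. Log2 differences that changed sign ranged as follows: Tyms -0.090 to 0.26, Tk1 -0.51 to 0.70, Mcm5 -0.30 to 0.39, Mcm7 -0.12 to 0.35, Pcna -0.022 to 0.15, Cdk1 -0.30 to 0.64, Ccnb1 -1.49 to 1.36, Ccnb2 -0.75 to 0.94, Aurkb -0.21 to 1.36, Plk1 -0.34 to 2.11, Bub1b -0.48 to 1.4, Cenpa -0.090 to 0.79, Cenpe -1.05 to 0.76, Birc5 -0.42 to 1.23, Kif11 -0.31 to 2.36, Kif20b -0.79 to 1.45, Kif23 -0.16 to 1.75, Tpx2 -1.0 to 1.12, Prc1 -0.27 to 2.26, Ube2c -0.62 to 1.43, Cdc20 -0.67 to 0.95, Mki67 -0.054 to 1.54, Top2a -0.58 to 2.31, Smc2 -0.081 to 0.63, Ncapg -0.55 to 1.94, Hmgb2 -0.32 to 0.39. These turns came mostly without BODIPY-low 1 or BODIPY-high 2. Depth limits Bub1, Ncapg, Cenpf, Kif11 and Nusap1, which had 0 to 6 reads in BODIPY-low 1.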

Other observations

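Beyond the members and the fixed lists, the genes that were at least 2-fold higher in library 2 than in each other library of both gates were named after their values were seen. There were 101 of 12767. Members and listed cell cycle genes made up 54 of them, which is 53.5% of the 101 and 22.4% of the 241 tested genes on those lists, and 47 were on neither. Marco, a scavenger receptor of macrophages, had the highest mean normalized count of the 47 (not scaled by length), at 147, 364 and 136 in BODIPY-low and 270.3, 1461 and 248 in BODIPY-high libraries. It was followed by Trim59, at 111, 407 and 193 in low and 155, 816 and 188 in high libraries, and by Pbk, a mitotic kinase, at 15.4, 271 and 71.6 in low and 33, 870.5 and 123 in high libraries. Next came Arhgef39, at 106, 341 and 96.9 in low and 130.1, 284 and 113 in high libraries, and Cdca3, which acts at mitotic entry, at 38.4, 229 and 64.2 in low and 30.0, 389.9 and 129 in high libraries. Melk was at 20.8, 211 and 52.6 in low and 21, 478 and 60.7 in high libraries and Shcbp1 at 19.7, 219 and 37.9 in low and 26, 421 and 91 in high libraries, both on neither list. None of the genes named here was called by gate (limma).

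Most genes that differed by library number were on neither the member list nor the cell cycle lists, which do not hold every gene of division. Of the 572 called, 73 (12.8%) were members or listed cell cycle genes and 499 were on neither, and 127 were highest in library 2 of both gates. In the promoters of the 376 of those 499 that matched, CHR and CCAAT were both present in 6.38%, beside 5.7% of tested genes.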
